A study of Polypedilum vanderplanki with 24 samples.

Results

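The comparison described here set 2 lines of Pv11 cells against each other after 48 h in trehalose, and asked what the insertion of a HaloTag and a blasticidin resistance gene (BlaR) did to the transcriptome of cells without HSF1. Pv11 is a cultured cell line from embryos of the sleeping chironomid Polypedilum vanderplanki, an insect whose larvae survive almost complete loss of water. The members were each of the 17782 genes of the deposited table taken once, and the groups were Halo-Bla_T48, which is Hsf1-/-; HaloTag/BlaR, and HSF-KO_T48, which is Hsf1-/-. They cover 6 of the 24 samples of the series, with 3 libraries in each group. Both lines carry AcGFP1 and a zeocin resistance gene, driven by the 121 promoter, inside exon 1 of Hsf1, so the controls lacked HSF1 as well. Hsf1-/- was 1 clone taken after zeocin selection and sorting. Hsf1-/-; HaloTag/BlaR was 1 clone derived from it after a further blasticidin selection and sorting, so the insert, the clone and the second selection cannot be told apart. The other groups are the same lines before trehalose (T0), the rescue line Hsf1-/-; Hsf1-HaloTag/BlaR (HSF-KI), which by its description carries Hsf1 in front of the HaloTag at the same locus, and wild type Pv11 cells.

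Trehalose is the sugar that prepares Pv11 cells for drying. On exposure the cells raise transcripts for late embryogenesis abundant (LEA) proteins, which protect other proteins during water loss, for thioredoxins, which reduce oxidised proteins, and for protein L-isoaspartate methyltransferases (PIMTs), which repair damaged aspartate residues. HSF1 is the transcription factor of the heat shock response and binds heat shock elements (HSEs), arrays of inverted GAA units. The HaloTag/BlaR line was made as the negative control of the rescue line, and it shares with the rescue line the tag, the resistance gene and the site, but not Hsf1.

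The insert stands directly in front of the stop codon of g7775, an abundant transcript on chromosome 2 of assembly Pv_5.2 (chr2:25899242-25899664, minus strand). The sequences are shown because they fix where the coding sequence ends and the new one begins. The first line gives the last 30 bases of the g7775 coding sequence with the final codon in capitals, the second the guide target with its PAM in capitals, and the third the reverse complement of that target, in which the capitals mark the stop codon.
g7775 coding end: gtaggcagaaaacatcattgccatcatAAT
guide target: ttataagattttaattatgaTGG
guide target, reverse complement: ccatcataatTAAaatcttataa
The coding sequence before the insert runs for 420 bases and the table's gene for 423 bases, the difference being the stop codon of 3 bases.

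Values are in TPM (transcripts of a gene per 1e6 transcripts), a level corrected for gene length and library total, and the table gives the authors' mean of each group. A ratio below is the difference of log2(TPM + 1) between the HaloTag/BlaR line and Hsf1-/-, which understates the change of genes at low level. A gene was measured if it reached 1 TPM in either line and is called higher or lower if the ratio passed 2-fold, which is 1 on the log2 scale. With a single mean per group there is no replicate check, so no difference below has an error or a p-value, and the sequencing depth of the libraries is unknown from these values.

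The 2 lines were close to each other in trehalose. Of 8395 measured genes, 98 were higher in the HaloTag/BlaR line (1.17%) and 126 were lower (1.5%), 2.67% in all. The median ratio was 0.01, the central 90% of genes lay between -0.58 and 0.56, and 90.6% differed by less than 1.5-fold. Only 2 genes passed 4-fold upward and 16 downward. Differences past 2-fold were more frequent below 10 TPM. They made up 6.51% of the 1490 genes between 1 and 5 TPM and 4.38% of those between 5 and 10 TPM. Above that there was no steady fall: 1.52% between 10 and 50 TPM, 0.86% between 50 and 100 TPM and 1.59% between 100 and 1000 TPM. Of the 174 genes at 1000 TPM or more the share was 1.15%.

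**Figure D1:**
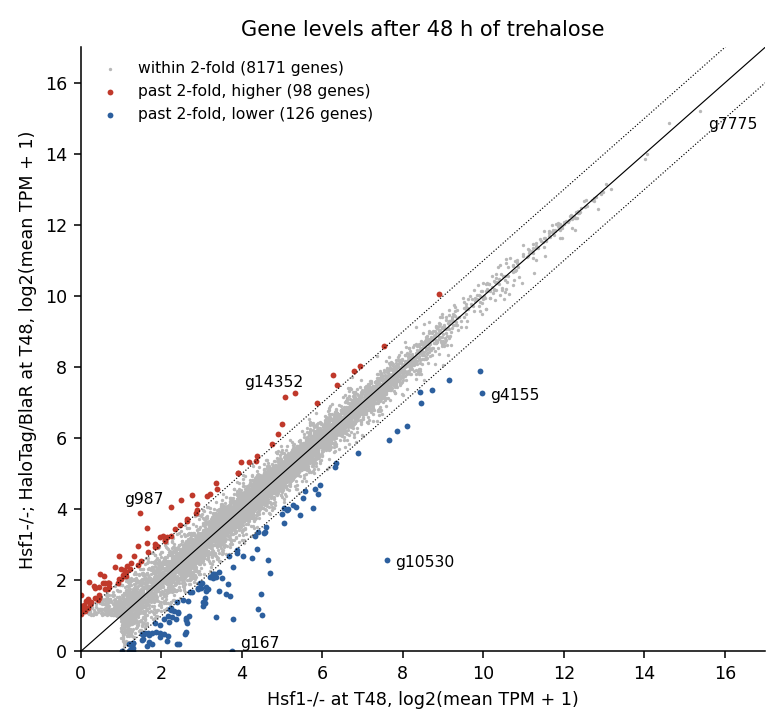
Each point is 1 of 8395 genes, placed by its group mean in Hsf1-/- (x axis) and in Hsf1-/-; HaloTag/BlaR (y axis) at T48, both as log2(TPM + 1); the solid line is equality and the dotted lines mark 2-fold. The 98 higher genes (red) and 126 lower genes (blue) are mostly at low level, and g10530, at 4.98 against 193 TPM, lies farthest from the line.

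The contrasts among the other lines give the scale of this distance, although they share groups with it. By the same rule 9.16% of genes differed between Hsf1-/- and wild type cells at T48, 15.1% between the rescue line and Hsf1-/-, and 20% between the rescue line and the HaloTag/BlaR line. In the 2 contrasts with the rescue line the median of all genes stood at -0.31 against Hsf1-/- and -0.34 against the HaloTag/BlaR line. Scaling by median-of-ratios factors brought these medians to 0.01 and -0.00. After it 598 genes were higher and 429 lower of 8290 against Hsf1-/-, and 16.7% of genes differed against the HaloTag/BlaR line. The factors of the HaloTag/BlaR line and of Hsf1-/- were 1.23 and 1.21, so scaling moved their own contrast little. Hsf1 itself (g3611) could not check the labels, since its mean was 0.20 TPM in the HaloTag/BlaR line, 0.25 TPM in Hsf1-/- and only 0.31 TPM in wild type cells at T48. In the group labelled as the rescue line it read 0.14 TPM at T48 and 0.0089 TPM at T0, no higher than in either line without Hsf1. Wild type cells were also low at T0, at 0.086 TPM, so this gene could not check the rescue label either. Whether reads of the inserted Hsf1 copy were counted to g3611 is unknown from these values. The rescue line is named below by its label alone. Genes of differentiated tissues were mostly silent in both lines: of 4 prophenoloxidase genes none reached 1 TPM, and 4 of 43 globin genes, 18 of 107 cuticle protein genes and 1 of 4 tropomyosin and troponin genes did.

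The host gene of the insert differed little between the lines. In trehalose g7775 stood at 37726 TPM in the HaloTag/BlaR line and 42716 TPM in Hsf1-/-, a ratio of -0.18, and at T0 at 48410 and 48156 TPM, a ratio of 0.01. It made up 3.78% and 4.28% of all TPM at T48. In the rescue line at T48 it was at 12040 TPM and in wild type cells at 53957 TPM. At T48 the HaloTag/BlaR line thus lay between the rescue line and its parent Hsf1-/-, nearer to the parent. At T0 it stood at the level of the parent, with the rescue line at 36840 TPM.

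Genes beside the insert showed little difference. Distances from g7775, here and below, run between the lowest coordinates of the genes, whatever their strand. The 5 genes within 10000 bases of g7775 had ratios from -0.07 to 0.06 at T48, and none was called. Upstream and downstream neighbours included g7772, a sugar transporter family member, at 81.1 and 82.4 TPM, g7773, a myotubularin-like phosphatase, at 37.2 and 35.9 TPM, and g7777, which carries an Arf GTPase-activating domain, at 69.2 and 68.9 TPM. The nearest gene, g7774, read 6.61 and 6.31 TPM at T48 (ratio 0.06) but 0.93 and 4.60 TPM at T0 (-1.54). Its means thus differed at T0 and were close at T48, at low level and without a replicate check. Within 100000 bases 19 genes were measured, with a median of -0.02 against 0.01 for all genes, and 1 was called. This was g7778, 35.0 kb away, whose best named match is the ecdysone-induced Ets factor E74 of flies. It stood at 69.1 TPM in the HaloTag/BlaR line and 28.7 TPM in Hsf1-/- (1.24), against 18.1 and 15.4 TPM at T0 (0.22), and at 20.5 TPM in the rescue line and 40.2 TPM in wild type cells at T48.

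**Figure D2:**
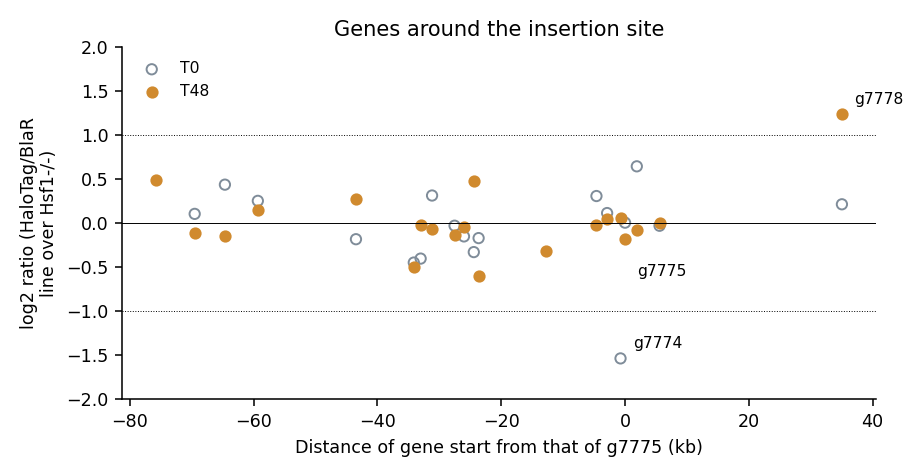
Log2 ratio of the HaloTag/BlaR line over Hsf1-/- (y axis) for g7775 and each measured gene within 100 kb of it, at T48 (filled) and T0 (open). The x axis is the distance in kb between the lowest coordinates of the genes, whatever their strand. Apart from g7778 at T48 (1.24) and g7774 at T0 (-1.54), every point lies within 2-fold, marked by the dotted lines.

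No chromosome stood apart as a whole. Among genes at 5 TPM or more in both lines, the median ratio of the 4 chromosomes lay between -0.02 and 0.03. Cut into 129 successive runs of 50 genes, the medians ran from -0.11 to 0.12, and the run with the insert had 0.01.

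The largest differences were losses, that is, lower values in the HaloTag/BlaR line than in Hsf1-/-. Neither the losses nor the gains below say which of the 2 lines changed. The forkhead gene g10530 (chr3:10364616-10366171), a transcription factor gene that resembles crocodile of flies, read 4.98 TPM in that line and 193 TPM in Hsf1-/-, a ratio of -5.02. At T0 it read 1.19 and 33.6 TPM (-3.98). It was at 160 TPM in the rescue line and 0.56 TPM in wild type cells at T48, so it was abundant in 2 of the 3 lines that carry the disrupted Hsf1 and low in the other line and in wild type cells. A further forkhead gene, g5192, was at 3.20 and 10.4 TPM (-1.44).

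The tetraspanin g4155, of a family of membrane proteins that organise other proteins in the membrane, was the most abundant of the lower genes in Hsf1-/-. It stood at 154 TPM in the HaloTag/BlaR line and 1006 TPM in Hsf1-/- (-2.70), and at 22.0 and 294 TPM at T0 (-3.68). Its mean was higher at T48 than at T0 in both lines. g2540, a member of glycosyl hydrolase family 18 that resembles imaginal disc growth factors of mosquitoes, stood at 234 and 972 TPM at T48 (-2.05) and at 9.02 and 40.6 TPM at T0 (-2.06). Its levels in the rescue line and in wild type cells at T48 were 4172 and 976 TPM.

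The adjacent gene models g14965 and g14966 on chromosome 4, both matched to teneurins, the large transmembrane adhesion proteins, were both lower. They lie on the same strand and match the same protein of Clunio marinus. Whether they are 2 genes or parts of 1 is unknown from these values. g14965 read 2.08 and 21.2 TPM at T48 (-2.85) and 3.31 and 28.1 TPM at T0 (-2.75). g14966 read 0.87 and 12.8 TPM (-2.88) and 2.27 and 16.4 TPM (-2.41). The cytochrome P450 gene g55, matched to a CYP6 member of Aedes, read 1.02 and 21.7 TPM at T48 (-3.50) and 0.58 and 17.0 TPM at T0 (-3.51). g167, which has no Pfam name, is listed at 0 TPM in the HaloTag/BlaR line and at 12.5 TPM in Hsf1-/-, after 4.55 and 45.4 TPM at T0 (-3.06). In wild type cells at T48 g14965, g14966, g55 and g167 stood at 2.03, 0.97, 1.75 and 2.42 TPM. In the rescue line at T48 they stood at 33.1, 19.8, 50.3 and 50.1 TPM.

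Some losses were seen in trehalose alone. g16218, which carries a TGF-beta propeptide, the signature of secreted growth factors, read 1.27 TPM in the HaloTag/BlaR line and 20.3 TPM in Hsf1-/- at T48 (-3.23), but at T0 it is listed at 0 and at 0.07 TPM. g14027, without a Pfam name, read 80.4 and 272 TPM at T48 (-1.75) and 3.22 and 3.74 TPM at T0 (-0.17). g1646, matched to the secreted calcium-binding matrix protein SPARC, read 126 and 351 TPM at T48 (-1.47) and 62.6 and 82.5 TPM at T0 (-0.39). The means of all 3 were higher at T48 than at T0 in both lines, by less in the HaloTag/BlaR line. In wild type cells at T48 g16218, g14027 and g1646 stood at 0.83, 150 and 287 TPM. In the rescue line at T48 they stood at 22.2, 75.2 and 657 TPM.

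The gains were smaller. The highest ratio among genes at 10 TPM or more was that of g987, matched to carotenoid isomerooxygenase, which makes retinal from carotenoids in flies, at 13.8 and 1.78 TPM (2.42). g14352, without a Pfam name, followed with 141 and 32.4 TPM (2.09), then g10989, which carries the GRIP domain of Golgi coiled-coil proteins, with 153 and 38.8 TPM (1.95). At T0 these 3 genes had ratios of 0.70, 0.69 and 0.40. In the rescue line at T48 they stood at 2.08, 4.60 and 23.0 TPM and in wild type cells at 26.4, 92.3 and 36.1 TPM. For g10989 and g14352 the mean of the HaloTag/BlaR line at T48 was above that of each other line. The bZIP gene g8914 (20.2 and 5.79 TPM, 1.64), the methyltransferase-domain gene g9185 (220 and 76.2 TPM, 1.52) and the UDP-glucuronosyltransferase g13205 (83.2 and 30.8 TPM, 1.41), of an enzyme family that couples sugars to small molecules, were also among the 10 highest.

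The same 2 lines at T0 give a second measure of their difference from separate libraries. There 31 of 7699 measured genes were higher in the HaloTag/BlaR line (0.403%) and 106 were lower (1.38%). Of 7556 genes measured at both times, 35 were lower at both (0.463%) and 8 were higher at both (0.106%), while 2 (0.0265%), the histone gene g8510 and g16135, were lower at T48 and higher at T0. Of the 126 genes lower at T48, 87 were measured at T0. Of these, 35 (40.2%) were past 2-fold lower there as well, against 1.14% of all genes measured at both times, and 76 had a ratio of the same sign. Of the 98 genes higher at T48, 62 were measured at T0 and 8 (12.9%) were past 2-fold higher there, against 0.318%, with 46 of the same sign. Across the 7556 genes, which are not independent and share the 2 cell lines, Pearson's r of the T0 and T48 ratios was 0.36 and Spearman's rho 0.20. The difference between the share of losses and that of gains was not tested.

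**Figure D3:**
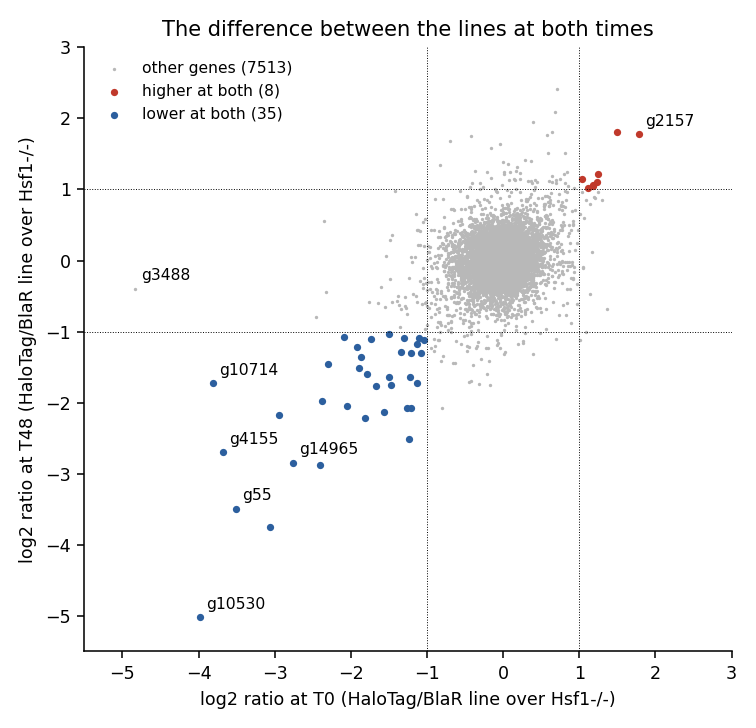
Log2 ratio of the HaloTag/BlaR line over Hsf1-/- at T0 (x axis) and T48 (y axis) for the 7556 genes at 1 TPM or more in either line at each time; dotted lines mark 2-fold. The 35 genes lower at both times (blue) spread to -5.02, the 8 higher at both (red) reach 1.81, and g3488 is far from 0 at T0 alone.

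The 35 genes lower at both times had a median level of 1.96 TPM in the HaloTag/BlaR line at T48, against 11.1 TPM in Hsf1-/-, 9.33 TPM in the rescue line and 2.56 TPM in wild type cells. Single genes did not all follow the order of these medians. In 10 of the 35 wild type cells were at or below the HaloTag/BlaR line at T48, and in 9 they were at or above Hsf1-/-, among them g13302, g2540 and g5020, the last at 703 TPM in wild type cells and 201 TPM in Hsf1-/-. In 7 of the 35 the rescue line was below the HaloTag/BlaR line. Besides the genes above, the 35 held the actin-binding cofilin family gene g12762 (197 and 564 TPM at T48, -1.51), the muscle-type myosin heavy chain gene g12034 (5.13 and 18.2 TPM, -1.64), the CD36 family gene g10751 (2.07 and 11.1 TPM, -1.98) and the antibacterial attacin g10714 (0.86 and 5.15 TPM at T48, 3.26 and 58.9 TPM at T0).

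The 8 genes higher at both times were g2643, g20, g3837, g7938, g7936, g10697, g2157 and g6813. g6813, matched to extracellular sulfatases, which trim heparan sulfate, stood at 15.7 and 3.74 TPM at T48 (1.81) and at 58.5 and 20.1 TPM at T0 (1.50). g2157 stood at 18.1 and 4.57 TPM at T48 and 10.8 and 2.42 TPM at T0, with a ratio of 1.78 at each time. g3837, of the Bax inhibitor family of membrane proteins, which restrain cell death in other animals, stood at 384 and 184 TPM (1.06) and at 59.4 and 25.7 TPM (1.18). The abundant g7936 stood at 1057 and 477 TPM (1.15) and at 141 and 68.2 TPM (1.04). Its neighbour g7935, just inside the limit at T48, stood at 209 and 106 TPM (0.97) and at 44.7 and 21.2 TPM (1.04), and g7938, with an L7Ae/Gadd45 domain, at 238 and 110 TPM (1.11) and at 8.21 and 2.92 TPM (1.23).

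A predicted trimeric HSE lay in the 1000-base window of 20.5% of all measured genes. At T48 20 of the 98 higher genes (20.4%) and 21 of the 126 lower genes (16.7%) had one. Of the genes called at both times, 6 of the 35 lower (17.1%) and 5 of the 8 higher (62.5%) did. The last is a small set, and no share was tested. Examples are shown because HSF1, the factor for these elements, was absent from both lines. They were taken from the deposited table, with GAA and TTC units in capitals. Of the genes shown, g7935 was not among the 8 higher at both times.
g3837: TTCtaGAActctc
g7935 and g7936: tccccGAAcaTTC
The letters are matches to motifs of heat shock factors and are no evidence of binding. Among the higher and the lower genes at T48 the share was close to or under that of all genes.

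**Figure D4:**
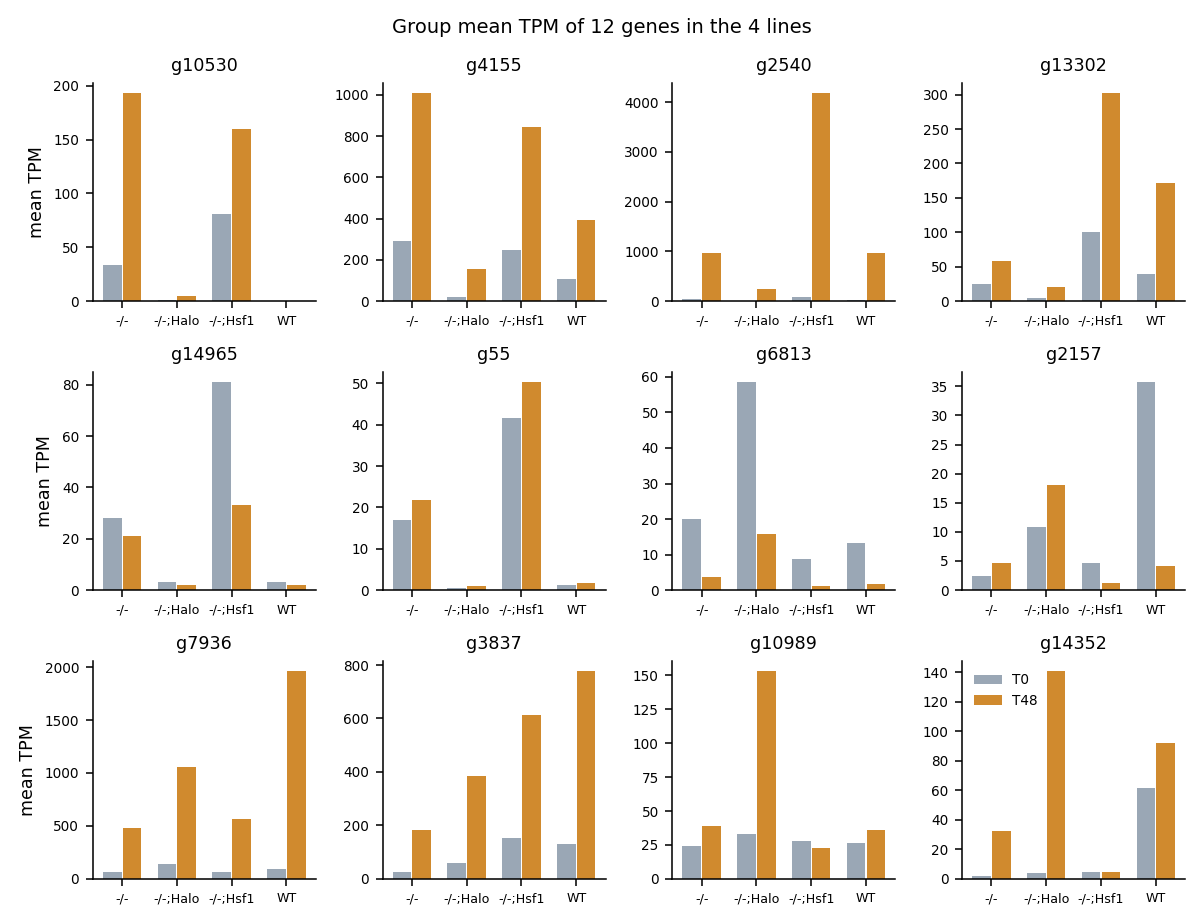
Bars give the group mean TPM (y axis, from 0, different for each gene) of 12 genes in Hsf1-/- (-/-), Hsf1-/-; HaloTag/BlaR (-/-;Halo), Hsf1-/-; Hsf1-HaloTag/BlaR (-/-;Hsf1) and wild type cells (WT) at T0 (grey) and T48 (orange), with no error since the table holds means. The first 6 genes are lower in -/-;Halo than in -/- at both times, for example g4155 at 154 against 1006 TPM at T48, and the last 6 are higher.

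Most genes of desiccation tolerance stayed within 2-fold, and those past it were lower in the HaloTag/BlaR line. Of 22 measured Lea genes 2 were lower (9.09%, against 1.5% of all measured genes) and none higher, with a median ratio of -0.12 at T48 and -0.26 at T0, beside 0.01 and -0.02 for all genes. The sum over the family was 61310 TPM in the HaloTag/BlaR line, 66189 TPM in Hsf1-/- and 172205 TPM in the rescue line. The abundant members were near equality: g16203 stood at 16338 and 17015 TPM and g16204 at 14911 and 16686 TPM. The 2 lower members were g17259 (3.73 and 9.80 TPM, -1.19) and g17261 (9.16 and 20.3 TPM, -1.07), which stood at 887 and 4193 TPM in the rescue line, and 17 of the 22 (77.3%) had a ratio below 0, against 48.3% of all measured genes.

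Of 16 measured Trx genes 3 were lower (18.8%, against 1.5% of all measured genes) and none higher, with a median of -0.15. These were g17498 (11.2 and 31.8 TPM, -1.43), g17501 (1.13 and 4.30 TPM, -1.32) and g17499 (157 and 342 TPM, -1.12), which lie close together on chromosome 4. They stood at 712, 387 and 5412 TPM in the rescue line. At T0 their ratios were 0.76, 0.40 and -0.86. The most abundant Trx gene in these 2 lines, g11995, was at 2231 and 2214 TPM (0.01).

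Of 14 Pimt genes none was called at T48 (median -0.11, and -0.38 at T0), with g16350 the lowest at 271 and 446 TPM (-0.72). Of 13 Lea-island-located (Lil) genes 1 was lower (7.69%, against 1.5% of all measured genes), g16170, at 0.42 and 2.41 TPM, and the median was -0.08. Of the 46 heat shock protein genes analysed here 38 were measured, with 1 lower (2.63%, against the same 1.5%) and a median of -0.05. That gene was g8098, a DnaJ family co-chaperone, at 0.43 and 2.18 TPM. Members of these multigene families can share sequence, and reads that fitted more than 1 place were not counted, so single values within a family are uncertain.

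Of 4 listed genes of trehalose metabolism 1 was lower (25%, against 1.5% of all measured genes). This gene, g13302, which carries the synthase and phosphatase domains that make trehalose, stood at 20.6 TPM in the HaloTag/BlaR line and 58.1 TPM in Hsf1-/- at T48 (-1.45), and at 4.38 and 25.5 TPM at T0 (-2.30). It was at 302 TPM in the rescue line and 171 TPM in wild type cells at T48. The phosphatase g13300 was at 25.6 and 32.2 TPM (-0.32), the trehalase g17178, which splits trehalose, at 1049 and 925 TPM (0.18), and the sugar transporter g6534 at 187 and 184 TPM (0.02).

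Proteasome genes, which encode the subunits of the protein-degrading core particle, all stayed within 2-fold. None of 15 was called, and all 15 had a ratio below 0 at T48, against 48.3% of all measured genes, from -0.50 to -0.03, with a median of -0.25, and the median at T0 was -0.34. Their sum was 3174 TPM in the HaloTag/BlaR line and 3965 TPM in Hsf1-/- at T48 and 6027 and 7703 TPM at T0. g7764, the lowest, lies 34.1 kb from g7775 and stood at 236 and 334 TPM (-0.50). After median-of-ratios scaling the median of the list was -0.27.

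Translation genes also stayed within 2-fold, with more ratios above 0 than below at T48, against 51.7% above 0 among all measured genes. Of 9 elongation factor genes 8 had a ratio above 0 (median 0.20, and 0.12 at T0), led by g9108, the eIF5A homologue, at 1141 and 866 TPM (0.40), and by the abundant elongation factor Tu family gene g10339 at 30008 and 25039 TPM (0.26). Of 35 aminoacyl-tRNA synthetase genes 25 were above 0, with a median of 0.12 at T48 and 0.01 at T0. Of 122 ribosomal protein genes 85 were above 0 and none was called, and their median was 0.05 at T48 but -0.07 at T0, on the other side of 0.

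Histone genes held the largest number of gains of any list. Of 68 measured nucleosome genes 13 were higher (19.1%, against 1.17% of all genes) and 2 lower (2.94%, against 1.5%), with a median of 0.33 at T48 and 0.18 at T0. All 13 were at low level. Among them g1946 reached the most, at 14.7 and 6.38 TPM (1.09), while g8247 read 2.89 and 0.14 TPM (1.77) and g6757 read 6.01 and 2.16 TPM (1.15). At T0 the ratios of g1946, g8247 and g6757 were -0.41, 0.58 and 0.15, not all of 1 sign. After scaling they stayed past the limit, at 1.05, 1.59 and 1.09. The core histone genes g6755 and g8248, called at 1.01 and 1.04, fell below it, to 0.90 and 0.91. Core histone messages of dividing animal cells mostly lack the poly(A) tail on which these libraries were selected, and their copies are near-identical, so these levels are uncertain. The sum over the list was 2416 TPM in the HaloTag/BlaR line and 2302 TPM in Hsf1-/-. DNA replication genes had a median of -0.15 at T48 and 0.06 at T0, with 0 of 40 called, and cyclins a median of -0.04 with 0 of 15 called.

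**Figure D5:**
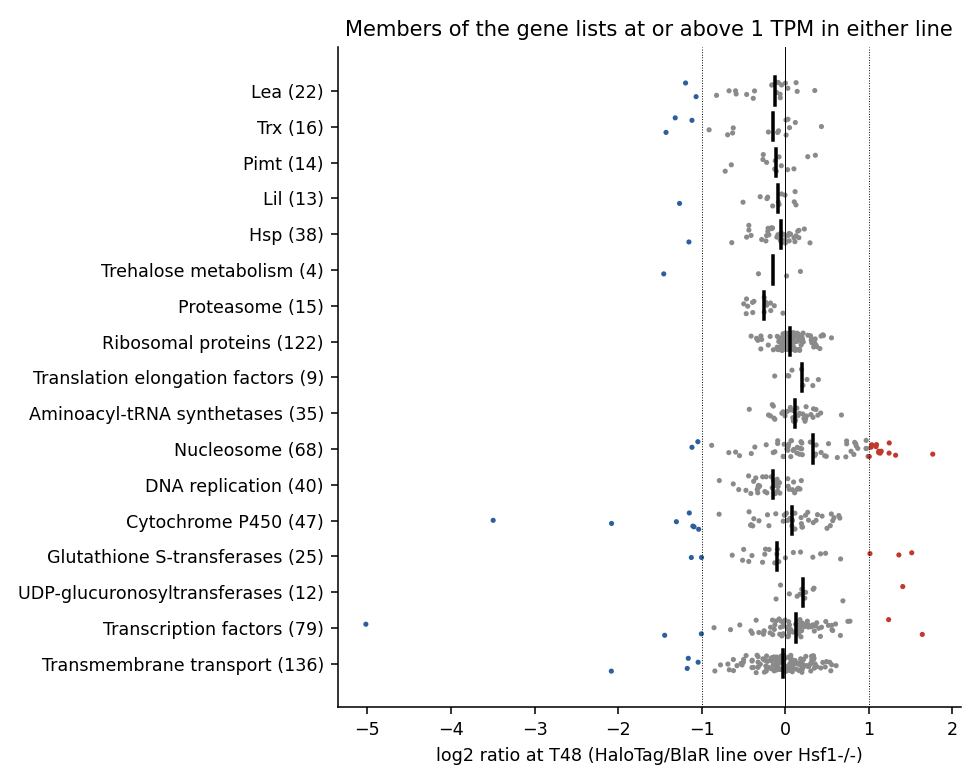
Each point is a gene at 1 TPM or more in either line, placed by its log2 ratio of the HaloTag/BlaR line over Hsf1-/- at T48 (x axis) in the row of its list, with the number of genes in parentheses, red where higher and blue where lower by 2-fold; the black bar is the median of the list. Medians run from -0.25 (Proteasome) to 0.33 (Nucleosome).

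Detoxification genes differed in both directions. Of 47 measured cytochrome P450 genes 7 were lower (14.9%, against 1.5% of all genes) and none higher, while the median was 0.08. Besides g55 the lower ones included g10702 (4.91 and 24.0 TPM, -2.08), g3261 (15.0 and 34.5 TPM, -1.15) and the adjacent g45, g46 and g47, at ratios of -1.09, -1.04 and -1.10. Of 25 glutathione S-transferase genes, whose products couple glutathione to reactive compounds, 3 were higher (12%, against 1.17% of all genes) and 2 lower (8%, against 1.5%). The higher ones were the neighbours g3542 (4.18 and 0.81 TPM), g3543 (11.6 and 5.24 TPM) and g3544 (5.41 and 1.50 TPM), and at T0 all 3 were below 1 TPM in both lines. Of 79 genes listed under the GO term for transcription factors 2 were higher (2.53%) and 3 lower (3.80%), against 1.17% and 1.5% of all genes. The 3 lower ones, g10530, g5192 and g3769, were among the 7 measured genes with a forkhead domain. g3769 was at the limit, at 5.39 and 11.8 TPM (-1.003), and at -0.994 after scaling. The domain was not a list of its own and was singled out after the values were seen. The GO list does not hold every transcription factor gene: g3795, with a homeobox and a paired box domain, was also lower, at 2.41 and 6.87 TPM (-1.21).

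The lower genes lay beside each other more often than other genes did. On the 4 chromosomes 46 of 122 lower genes (37.7%) had another lower gene as their nearest measured neighbour on either side, whereas 2.79% of all measured genes had a lower neighbour. For the higher genes the figures were 11 of 97 (11.3%) and 2.23%. Many such neighbours are relatives, and 20.5% of the lower genes kept a lower neighbour when pairs with a shared Pfam name were not counted. That share still holds pairs that match the same protein under different or missing Pfam names, such as g14965 with g14966 and g7185 with g7187. Such pairs may be parts of 1 gene, which was not tested. The count of lower neighbours was made after the values were seen, and it has no test.

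The 46 genes formed 19 runs of up to 5 genes, none wider than 25.4 kb. The longest run, on chromosome 1 (chr1:2805139-2816672), held g344, a short chain dehydrogenase, and the 5'-nucleotidase family genes g345, g346, g348 and g350, whose relatives release nucleosides from nucleotides. g345 was at 3.58 and 25.1 TPM (-2.51) and g350 at 1.61 and 7.24 TPM (-1.66). A run of 4 (chr1:1445966-1465254) held g161, the adenosine deaminase gene g166 (0.07 and 1.47 TPM), g167 and g170, a Kazal-type protease inhibitor (0.16 and 4.25 TPM, -2.18). In the latter run 3 of the 4 genes were also past 2-fold lower at T0, and over the 19 runs 16 of the 46 genes were. Beside the tetraspanin g4155 lay g4156, a RUN and TBC domain gene, at 0.17 and 1.46 TPM (-1.08). The alpha/beta hydrolase genes g2104, g2105 and g2106 had ratios of -1.42, -1.10 and -1.28.

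The response to trehalose itself, T48 over T0, was compared between the lines as the difference of their log2 ratios. Of 8538 genes at 1 TPM or more in any of the 4 groups, 190 responded more positively in the HaloTag/BlaR line by 2-fold or more and 112 less, 3.54% in all. Since the difference is built from the same means as the T48 and T0 ratios, it is a rearrangement of them. The largest positive differences came from genes that were lower in the HaloTag/BlaR line at T0. g3488, a lipocalin family gene, read 0.09 and 30.0 TPM at T0 and 0.56 and 1.05 TPM at T48, and the attacin g10714, given above, was at lower level after trehalose in both lines. Among genes at 10 TPM or more the largest negative difference was that of g16218 (-3.13), followed by g17498 (-2.18), for which the HaloTag/BlaR line read 0.87 TPM before and 11.2 TPM after trehalose and Hsf1-/- read 0.11 and 31.8 TPM.

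Annotation was thinner among the called genes than elsewhere. Of the 224 genes past 2-fold, 85 (37.9%) had no Pfam name, against 19.6% of all measured genes, and the called genes also stood at lower levels, as given above.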

How the data were processed

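Poly(A) RNA of Pv11 lines was sequenced by the study's authors, who aligned reads with HISAT2 to assembly Pv_5.2, used SAMtools 1.9 and Picard, counted with HTSeq 0.6.0 (reads without a unique place left out) and averaged TPM over the 3 libraries per group. Only these deposited TPM means, no counts, were used. Single libraries were not analysed here. The deposited score column, a FIMO match score of predicted HSEs in a 1000-base window, only served to pick the best match of a gene. The deposited table repeats a gene for each HSE on 25248 lines, so each of 17782 genes was taken once. Its starts count from 0 and were raised by 1, after which both ends of 8123 genes match RefSeq.

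Ratios are differences of log2(TPM + 1), with 1 TPM in either line as minimum and 2-fold as limit (Python 3.11.15, pandas 2.3.3). The calls were tested on simulated data, in which only genes at 10 TPM or more were changed, by well over 2-fold. That test does not cover genes at low level or near the limit. The precision per library is unknown. Lists came from the study's gene families and from GO and Pfam terms of the table. Named genes are the extremes at 10 TPM or more at T48, at both times and in response, list extremes, Hsf1, g7775, 3 neighbours on each side and the 10 most abundant genes. Others named were chosen after their values were seen. Members and lists were chosen with earlier results of these data known.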

Additional observations from a re-analysis of the deposited data

How the results depend on the processing

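No paired analysis was possible because the table holds 1 mean per group, without replicate numbers, and leaving out single libraries could not be run for the same reason. Counts depended on the treatment of low values. At T48 the higher and lower genes numbered 235 and 243 with a pseudocount of 0.1, 248 and 256 with 0.01, and 48 and 79 with a minimum of 5 TPM. At T0 they numbered 87 and 201, 96 and 207, and 19 and 48 under the same settings, and those called the same way at both times 22 and 59, 23 and 60, and 5 and 16. With a pseudocount of 0.1 the trehalose responses differed upward in 482 genes and downward in 288. Median-of-ratios scaling, no minimum and leaving out the 10 most abundant genes kept these counts within 1.5 times where they were run. List medians moved by over 0.1 in 10 of 185 values. With a minimum of 5 TPM these were Trx at -0.035, Nucleosome at 0.18, Globins at 0.24 and Piwi and Argonaute at -0.19. With no minimum they were Nucleosome at 0.19, UDP-glucuronosyltransferases at 0.050, Globins at 0.20 and cuticle proteins at 0.13, and with scaling Globins at 0.22 and cuticle proteins at -0.38. No named gene changed sign while past 2-fold under any setting run, and 10 named genes within 2-fold passed it under at least 1 smaller pseudocount. The chromosome medians and the genes near the insert stayed within these limits. The count of lower genes beside each other, an alternative chosen after seeing the data, was 36.4% after scaling, 33.3% with a minimum of 5 TPM and 20.5% without shared Pfam names.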

Other observations

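Arrestin-domain genes were not on any list and are given as values, chosen after they were seen. g6101 stood at 2.81 TPM in the HaloTag/BlaR line and 0.90 TPM in Hsf1-/- at T48, g6103 at 8.23 and 3.44 TPM and g9519 at 3.12 and 0.94 TPM. The ratios were 1.004, 1.06 and 1.09, close to the limit, and after scaling 0.92, 1.01 and 0.997. These genes were picked from the called ones, and other genes with the domain were not counted. Their levels in the rescue line were 0.07, 0.46 and 0.21 TPM and in wild type cells 0.65, 2.73 and 3.56 TPM. The adjacent UNC-93 family genes g11625 and g11626 stood at 6.84 and 2.71 TPM and at 6.82 and 1.68 TPM. The notch-like EGF-repeat gene g11237 stood at 39.5 and 14.7 TPM, with 3.85 TPM in the rescue line and 35.3 TPM in wild type cells.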
